A study of Mus musculus with 10 samples.

Results

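Cytochrome P450 genes of families 1 to 4 were followed across 8 groups of mouse kidney RNA and in 2 single-cell libraries. Genes were chosen by 2 criteria, a symbol of family 1, 2, 3 or 4 and a mean level of at least 1 CPM (counts scaled to a library total of 1000000) over 29 bulk libraries. Of 80 such genes in the table of 33644 genes, 34 met that level: 1 of family 1 (Cyp1b1), 19 of family 2, 14 of family 4 and none of family 3. The mean level chose the genes and is therefore no finding. Just above the minimum stood Cyp2c69 with a mean of 1.02 CPM, Cyp4f15 with 1.11 CPM and Cyp4f14 with 1.18 CPM. Just below it stood Cyp3a13 with 0.967 CPM, Cyp2b10 with 0.825 CPM and Cyp1a1 with 0.684 CPM. All 34 genes passed the low-count filter of the test. Of the 34, 3 reached a mean of 1 CPM in only 1 kind of kidney: Cyp4f18 in injured kidneys (5.97 CPM, against 0.733 CPM in kidneys without ischaemia), and Cyp4f14 and Cyp2c69 in kidneys without ischaemia (1.61 and 1.32 CPM, against 0.577 and 0.581 CPM in injured ones). Their choice fixed the direction of their injury difference, which is given as a description and supports nothing.

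Cytochrome P450 enzymes are haem proteins, mostly of the endoplasmic reticulum, that insert an oxygen atom into a substrate with electrons passed on by P450 reductase. Families 1 to 3 oxidise drugs, pollutants and steroids, several Cyp2 enzymes turn arachidonic acid into epoxides, and family 4 enzymes hydroxylate the end of fatty acid chains and of eicosanoids such as leukotrienes. In the kidney many of them are made in the proximal tubule, the nephron segment that reabsorbs most of the filtrate. There the epoxide and hydroxy products of arachidonic acid are known regulators of salt transport and vessel tone.

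The mice were 8 weeks old. Ischaemia lasted 15 minutes, was made by tying off 1 renal artery, and was followed by harvest of the injured and the contralateral kidney 2 weeks later. There were 3 arms with 4 libraries from injured and 4 from contralateral kidneys each: C57/BL6 mice given tamoxifen (wild-type tamoxifen arm), Pax8creERT2;Ihhfl/fl mice not given tamoxifen (floxed vehicle arm), and Pax8creERT2;Ihhfl/fl mice given tamoxifen (labelled Ihh-deleted arm). Pax8 drives Cre in renal tubule epithelium, so Indian hedgehog (Ihh) is floxed in every cell but removed only where that Cre acts. The other groups were C57/BL6 kidneys left after removal of the opposite kidney, without a stated time (nephrectomy, 3 libraries used), and uninjured C57/BL6 kidneys (2 libraries used). Single cells came from 1 injured and 1 uninjured kidney library. The floxed alleles are thus shared by the floxed vehicle and the labelled Ihh-deleted arms, and tamoxifen by the wild-type tamoxifen and the labelled Ihh-deleted arms.

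Ihh itself stood at 4.58, 6.09, 5.09 and 4.86 CPM in injured kidneys labelled Ihh-deleted and at 5.99 to 15.4 CPM in the 8 injured kidneys of the intact arms (log2 difference -0.72, edgeR quasi-likelihood test, adjusted p = 0.0828). In contralateral kidneys labelled Ihh-deleted it stood at 4.34, 8.69, 3.44 and 17.2 CPM, and the library at 17.2 CPM lies above every intact contralateral kidney (8.05 to 14.3 CPM). Because the label is not borne out by Ihh in every library, that arm is called labelled Ihh-deleted throughout. Of the 32 bulk libraries, 3 (2 uninjured, 1 nephrectomy) carried a heart profile, with 13.1% to 13.4% of counts from a list of heart genes and at most 0.017% from 22 proximal tubule genes. The rule leaves those 3 out. Totals of the 29 others ran from 592091 counts, in uninjured library 2, to 37921075 counts, in contralateral library 2 of the floxed vehicle arm. That library also had the highest P450 share of the 29, 1.05%, and without it the injury counts given below were 30 over 3 arms and 27 in the floxed vehicle arm. The labels do not say that the libraries of a group come from separate animals, so p-values measure the spread between these libraries only.

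A small set of genes carried most of the P450 RNA. Levels are compared between genes as CPM per kilobase of transcript (a level, averaged over the 29 libraries). Cyp4b1, an extrahepatic enzyme that oxidises fatty acids and some toxins, was the highest at 1215. Cyp2e1, which oxidises ethanol, acetone and small solvents, followed at 485, and Cyp2j5, an arachidonic acid epoxygenase of the proximal tubule, at 480. The order of these neighbours is not settled: in kidneys without ischaemia Cyp2j5 stood at 618 and Cyp2e1 at 609, and in injured kidneys at 285 and 309. Cyp2a4, a testosterone hydroxylase, came next at 283. These 4 genes made up 71.4% of the summed level of the 34, and the first 10 genes made up 91%. The next 2 genes in that order, the fatty acid hydroxylases Cyp4a31 (151) and Cyp4a10 (124), complete the highest 6. Summed over the 34 genes, P450 RNA took 0.751% to 1.05% of all counts in the 12 contralateral libraries and 0.853% to 0.913% in the 3 nephrectomy libraries.

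The genes sit in clusters, which is how the family is arranged in mammals. By GRCm38 coordinates (GENCODE M21), 26 of the 34 lie in 5 runs with gaps of less than 1 Mb and 8 lie alone. The 6 Cyp2j genes span 636.6 kb of chromosome 4 (96027534 to 96664154). Cyp4x1, 5 Cyp4a genes and Cyp4b1 span 541.4 kb of the same chromosome (115106323 to 115647723). The other runs are Cyp2s1, Cyp2a4, Cyp2a5 and Cyp2f2 on chromosome 7 (25802475 to 27133660), 4 Cyp2d genes on chromosome 15 (82370527 to 82794294), and 5 Cyp4f genes on chromosome 17 (32506050 to 32947402).

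Near-identical copies limit how reads can be assigned. Of the 31-base words in Cyp2a4 transcripts, 58.1% also occur in another Cyp gene, almost all of them in Cyp2a5, and of those of Cyp4a12a 62.2% do. The share was 65.9% for Cyp2c69, 54.6% for Cyp2a5, 45% for Cyp2d9, 44.9% for Cyp4a10, 32.2% for Cyp2d12, 30.5% for Cyp4a31, 26.1% for Cyp4f16 and 11.8% for Cyp4b1. It was 0 for Cyp1b1, Cyp2c23, Cyp2f2, Cyp2r1 and Cyp4v3, and between 0.04% and 3.89% for Cyp2s1, Cyp2e1, Cyp4a14, Cyp2j5 and Cyp4f18. Values of the first group depend on how the authors' counting divided shared reads.

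Upstream sequence is shown for 5 genes, a pair that fell together and the 3 rising genes that carry the letters marked below. Cyp4f18 and Cyp2s1, which also rose, do not carry those letters and are not shown. The sequences are from RefSeq on GRCm38.p6, which held promoters for 22 of the 34 genes, and each is the 250 bases before the RefSeq start, read 5′ to 3′ on the gene's strand. Cyp2a4 (chr7:26306942-26307191, plus strand) and Cyp2a5 (chr7:26835089-26835338, plus strand) have TATAAA and GTTAAT in capitals. Cyp1b1 (chr17:79715062-79715311, minus strand), Cyp4f16 (chr17:32536307-32536556, plus strand) and Cyp4v3 (chr8:45333164-45333413, minus strand) have GCGTG or its complement CACGC in capitals, the core letters of the element that the aryl hydrocarbon receptor is known to bind.
Cyp2a4: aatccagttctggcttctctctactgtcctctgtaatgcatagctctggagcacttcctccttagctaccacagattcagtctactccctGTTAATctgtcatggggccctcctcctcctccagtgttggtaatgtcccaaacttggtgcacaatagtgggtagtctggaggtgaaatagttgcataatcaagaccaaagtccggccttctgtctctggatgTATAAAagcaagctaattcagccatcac
Cyp2a5: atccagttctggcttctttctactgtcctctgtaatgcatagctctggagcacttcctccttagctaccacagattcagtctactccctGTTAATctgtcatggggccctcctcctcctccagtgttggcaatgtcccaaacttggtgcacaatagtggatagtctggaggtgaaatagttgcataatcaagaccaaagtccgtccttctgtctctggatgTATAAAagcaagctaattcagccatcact
Cyp1b1: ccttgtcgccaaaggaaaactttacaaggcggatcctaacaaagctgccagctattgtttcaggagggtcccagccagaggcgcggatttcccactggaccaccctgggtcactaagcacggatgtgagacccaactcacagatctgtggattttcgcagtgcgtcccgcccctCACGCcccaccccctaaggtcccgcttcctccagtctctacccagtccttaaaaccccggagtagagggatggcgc
Cyp4f16: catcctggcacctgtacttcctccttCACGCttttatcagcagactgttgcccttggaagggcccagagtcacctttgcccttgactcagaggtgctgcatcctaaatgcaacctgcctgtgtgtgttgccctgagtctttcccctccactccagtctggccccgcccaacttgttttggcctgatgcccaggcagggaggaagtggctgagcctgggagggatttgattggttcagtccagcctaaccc
Cyp4v3: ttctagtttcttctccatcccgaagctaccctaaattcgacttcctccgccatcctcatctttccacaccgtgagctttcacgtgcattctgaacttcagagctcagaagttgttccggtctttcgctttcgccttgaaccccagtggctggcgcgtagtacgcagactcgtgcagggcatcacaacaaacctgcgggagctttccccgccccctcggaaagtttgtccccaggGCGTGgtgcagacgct
Over windows of 300 bases (250 before to 50 after the start), Cyp2a4 and Cyp2a5 were 97.7% identical, so their shared letters are not independent matches, although each gene is counted below. Searched on both strands, GCGTG was in 32.4% of all 32851 promoter windows, in 3 of 5 genes that rose with injury and in 3 of 15 that fell. The longer form TNGCGTG, where N is any base, was in 5.065% of all windows, in 0 of the 5 and in 0 of the 15. GTTAAT on both strands was in 7.10% of all windows, in 0 of the 5 and in 5 of the 15 (Cyp2a4, Cyp2a5, Cyp2c69, Cyp2d26 and Cyp4f14). TATAAA on the sense strand was in 8.32% of all windows, in 0 of the 5 and in 4 of the 15 (Cyp2a4, Cyp2a5, Cyp2c69 and Cyp2e1). The 22 genes had 26 windows, and a gene is counted if any of its windows holds the letters, while the shares of all windows are per window. Cyp4f14 has several windows and not all of them hold GTTAAT, so its count is not on the same footing as that share. No Cyp4a promoter is in that table. A match describes letters only, and binding was not measured here.

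Injury lowered most P450 genes. In injured against contralateral kidneys over the 3 arms, 25 of the 34 genes fell and 5 rose (edgeR quasi-likelihood test, adjusted p under 0.05 over all 17591 genes). Over all genes tested 73.7% were called, 34.7% lower and 39% higher, so being called is common here. Apart from Cyp4f18, Cyp4f14 and Cyp2c69, whose direction the choice fixed, 23 of 31 fell and 4 rose. The median log2 difference was -1.27 for the 34 genes and 0.05 for all genes. The summed share of counts fell from 0.751% to 1.05% in contralateral kidneys to 0.188% to 0.408% in injured wild-type tamoxifen, 0.170% to 0.468% in injured floxed vehicle and 0.375% to 0.820% in injured kidneys labelled Ihh-deleted.

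Proximal tubule genes moved in the same libraries. All 22 genes of a proximal tubule list fell (median log2 difference -1.61), 8 of the P450 genes fell by more than that median and 26 did not. The list's share of counts was 3.89% to 4.85% in contralateral kidneys, 0.685% to 1.86% in injured wild-type tamoxifen, 0.738% to 2.29% in injured floxed vehicle and 2.02% to 3.96% in injured kidneys labelled Ihh-deleted. P450 counts per proximal tubule count were 0.193 to 0.222 in contralateral kidneys, 0.219 to 0.288 in injured wild-type tamoxifen, 0.173 to 0.243 in injured floxed vehicle and 0.186 to 0.207 in injured kidneys labelled Ihh-deleted. The P450 sum includes genes that rose, such as Cyp1b1, at 45.9 to 327 CPM in injured and 26.2 to 68.3 CPM in contralateral kidneys. The ratio without them was not calculated. In bulk RNA, fewer cells of a type and less RNA per cell cannot be told apart.

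**Figure D1:**
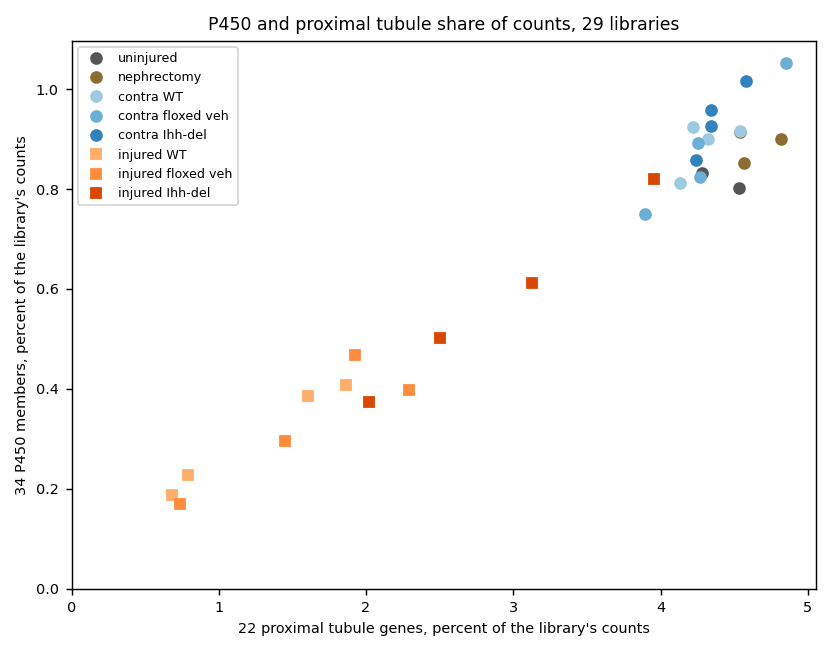
Share of each bulk library's counts held by the 34 P450 genes (vertical axis, percent) against the share held by 22 proximal tubule genes (horizontal axis, percent), 1 point per library, 1 colour per group, squares for injured kidneys. Contralateral kidneys sit between 0.751% and 1.05% P450 counts, and injured kidneys of the intact arms sit between 0.170% and 0.468%, and 1 injured kidney labelled Ihh-deleted, at 0.820%, reaches the contralateral range.

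The most abundant genes fell in nearly every library. Cyp4b1 (chromosome 4, 115624725 to 115647723, minus strand) stood at 261, 1049 and 2690.4 CPM (lowest, median, highest) in 12 injured and at 1956, 3264 and 4087 CPM in 12 contralateral kidneys. Of the 12 injured libraries 11 lay below every contralateral one, and the log2 difference was -1.99 (SE 0.26, edgeR adjusted p = 2.77e-07). The exception was library 3 of the labelled Ihh-deleted arm, at 2690.4 CPM.

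Cyp2j5 (chromosome 4, 96628773 to 96664154, minus strand) stood at 234, 709 and 1332 CPM in injured and at 1382, 1477 and 1816 CPM in contralateral kidneys. Its 2 sets of libraries did not overlap (log2 difference -1.58, SE 0.19, edgeR adjusted p = 8.39e-08). Among all 17591 genes tested 2.34% lay below without overlap and 11.2% above. The P450 genes gave 2 below (Cyp2j5 and Cyp4a31) and 1 above (Cyp4v3). Cyp2e1 (chromosome 7, 140763739 to 140774987, plus strand) stood at 200.1, 508 and 1217 CPM against 941, 1059.8 and 1344 CPM. Of the 12 injured libraries 11 lay below every contralateral one (log2 difference -1.42, SE 0.21, edgeR adjusted p = 1.34e-06), and library 3 of the labelled Ihh-deleted arm was again the exception.

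The Cyp2a pair, which hydroxylates testosterone (Cyp2a4) and coumarin (Cyp2a5), fell together. Cyp2a4 (chromosome 7, 26307169 to 26315088, plus strand) stood at 72.4, 255 and 612 CPM in injured and at 527, 657 and 900.2 CPM in contralateral kidneys (log2 difference -1.75, SE 0.21, edgeR adjusted p = 5.67e-08). Cyp2a5 (chromosome 7, 26835305 to 26843548, plus strand) stood at 15.2, 39.5 and 127 CPM against 69.8, 136 and 293 CPM (log2 difference -2.10, SE 0.30, edgeR adjusted p = 1.11e-06). For each gene 10 of 12 injured libraries lay below every contralateral one, and all injured libraries inside the contralateral range came from the labelled Ihh-deleted arm. Since the genes share most of their sequence, their values are not independent.

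All 6 Cyp2j genes fell, from -0.46 (Cyp2j6) to -1.58 (Cyp2j5) on the log2 scale. Of the 4 Cyp2d genes, which oxidise drugs and steroids, 3 fell. Cyp2d12 (chromosome 15, 82555072 to 82560403, plus strand) stood at 14.2, 35.9 and 122 CPM in injured and at 105, 197 and 367 CPM in contralateral kidneys (log2 difference -2.74, SE 0.31, edgeR adjusted p = 2.72e-08). Only library 3 of the labelled Ihh-deleted arm, at 122 CPM, reached the contralateral range. Cyp2d9 (chromosome 15, 82433437 to 82456845, plus strand) stood at 27.7, 72.9 and 175 CPM against 115, 182 and 274 CPM (log2 difference -1.53, SE 0.18, edgeR adjusted p = 6.95e-08), with 9 of 12 injured libraries below every contralateral one. Cyp2d26 fell by 1.37 on the log2 scale. Their neighbour Cyp2d22 was not called over the 3 arms (log2 difference 0.15, edgeR adjusted p = 0.0945).

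All 5 Cyp4a genes, which hydroxylate lauric and arachidonic acid, fell. Cyp4a31 (chromosome 4, 115563649 to 115579015, plus strand) stood at 38.2, 113 and 208 CPM in injured and at 222, 266 and 390.5 CPM in contralateral kidneys, with no overlap (log2 difference -1.60, SE 0.20, edgeR adjusted p = 1.08e-07). Cyp4a10 (chromosome 4, 115518264 to 115533649, plus strand) stood at 29.4, 126 and 271 CPM against 173, 260.1 and 586 CPM (log2 difference -1.60, SE 0.26, edgeR adjusted p = 5.86e-06), with 8 of 12 injured libraries below every contralateral one. Cyp4a12a (chromosome 4, 115299046 to 115332815, plus strand), the main arachidonic acid hydroxylase of the mouse kidney, stood at 23.1, 105 and 509 CPM against 120.3, 213 and 614 CPM. Its sets overlapped widely, with 7 of 12 injured libraries below every contralateral one (log2 difference -1.37, SE 0.36, edgeR adjusted p = 0.00161). Cyp4a12b, the copy next to it, fell by 1.33 on the log2 scale.

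Cyp4a14 (chromosome 4, 115486200 to 115496142, minus strand), a fatty acid hydroxylase gene that PPARA is known to induce, fell the most and was also the most variable. It stood at 1.09, 11.8 and 58.2 CPM in injured and at 8.13, 52.2 and 308 CPM in contralateral kidneys (log2 difference -2.88, SE 0.62, edgeR adjusted p = 0.000192). The sets overlapped, with 5 of 12 injured libraries below every contralateral one. Among kidneys without ischaemia it stood at 14.2, 62.5, 172 and 8.13 CPM (wild-type tamoxifen), 18.6, 20.6, 308 and 282 CPM (floxed vehicle), 103, 18.1, 41.8 and 74.7 CPM (labelled Ihh-deleted), 125, 324 and 383 CPM (nephrectomy) and 218 and 251 CPM (uninjured). Libraries of 1 contralateral group thus differed widely, and those of the floxed vehicle group fell into a low and a high pair. Cyp4a10 was also high in the libraries of the floxed vehicle group where Cyp4a14 was high, at 219, 238, 586 and 559 CPM, while Cyp4a12a was not, at 532, 212, 136 and 128 CPM.

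Of the 6 Cyp4f genes, whose enzymes hydroxylate leukotrienes and fatty acids, 4 fell and 2 rose. Cyp4f14 (chromosome 17, 32905070 to 32917342, minus strand) was near the lower limit of the choice, at 0.0551, 0.518 and 1.23 CPM in injured and at 1.22, 1.82 and 2.16 CPM in contralateral kidneys (log2 difference -2.05, SE 0.24, with no test, since its choice rests on kidneys without ischaemia). Of the 12 injured libraries 11 lay below every contralateral one. Falls of Cyp4f13 (-0.45), Cyp4f17 (-0.43) and Cyp2j6 (-0.46) were small on the log2 scale, which is relative to TMM-scaled library sizes, and their CPM ranges overlapped: Cyp4f13 stood at 21.4 to 27.2 CPM in injured and at 23.3 to 32.1 CPM in contralateral kidneys. The scaling factors were 0.954 to 1.32 in injured and 0.739 to 0.948 in contralateral libraries, which is why a gene at equal CPM comes out lower in injured kidneys.

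**Figure D2:**
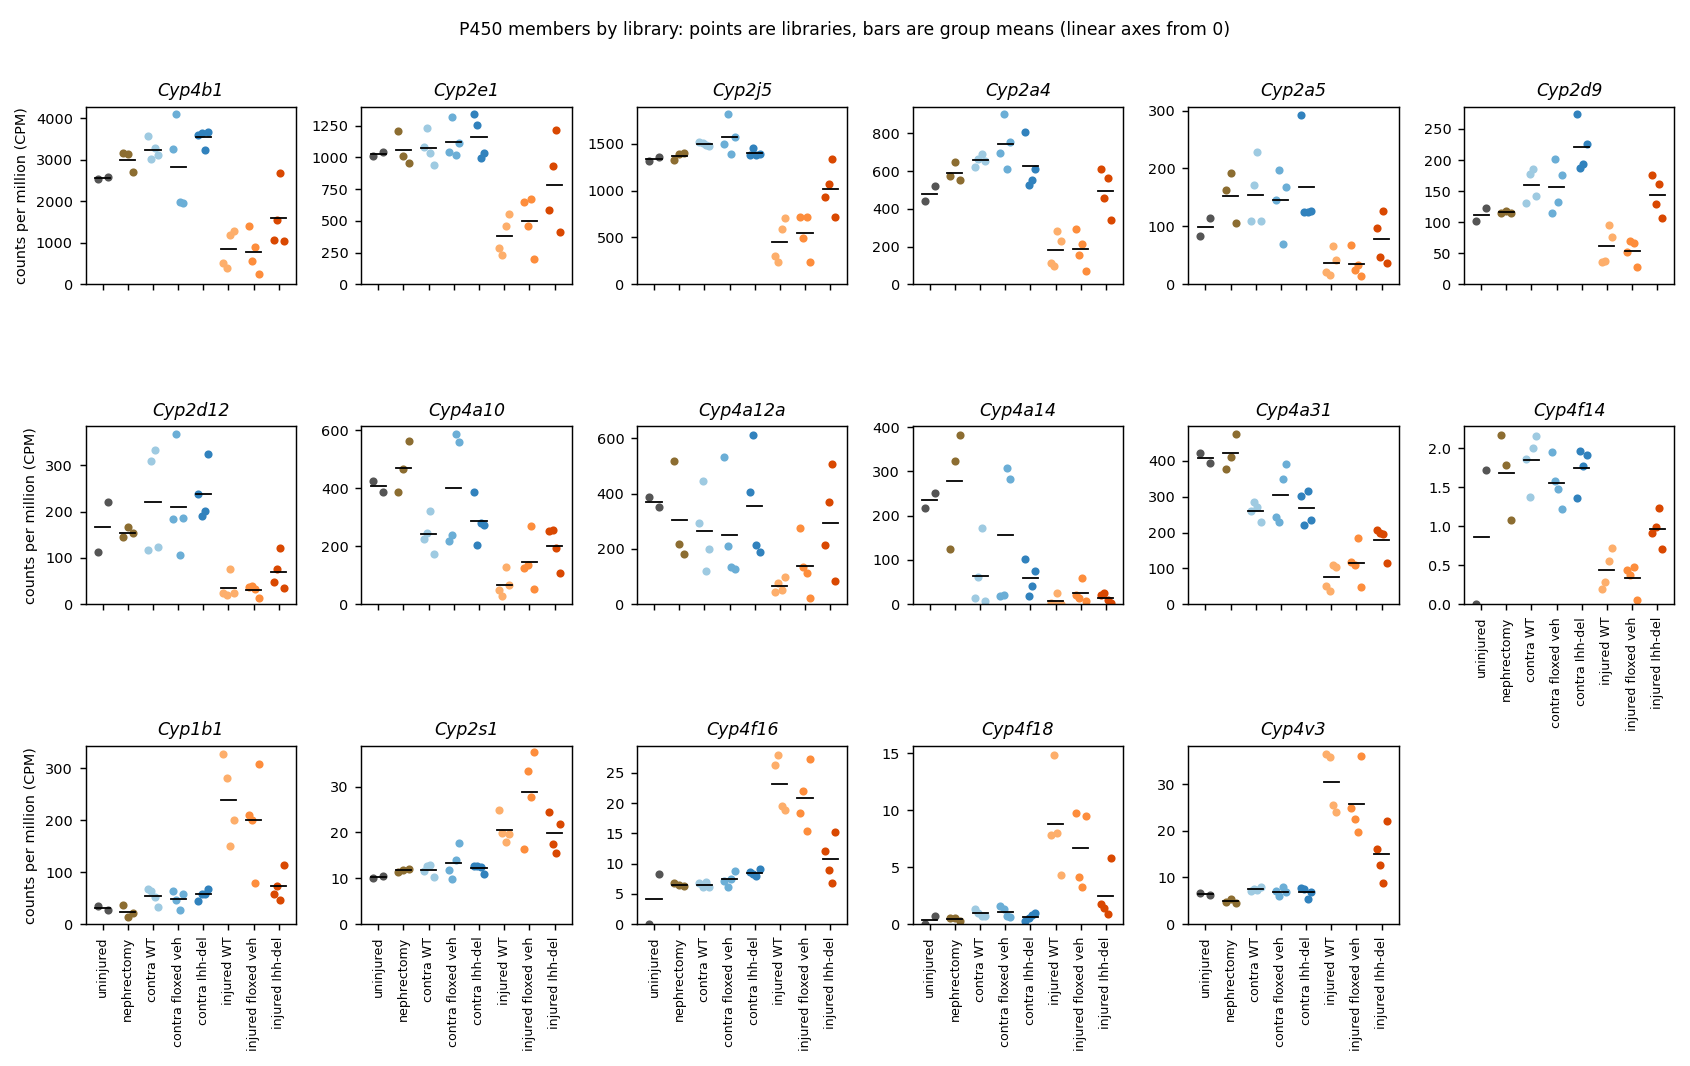
CPM of 17 P450 genes, 1 panel each with a linear vertical axis from 0, by group (horizontal axis), 1 point per library and a bar at the group mean. Cyp2j5 and Cyp4a31 show no overlap between injured and contralateral kidneys, and Cyp4v3 is higher in all 12 injured libraries. Among all genes tested 2.34% lay below and 11.2% above without overlap.

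The rising genes were 1 of family 1, 1 of family 2 and 3 of family 4, among them Cyp4f18, whose direction the choice fixed. Cyp4v3 (chromosome 8, 45304944 to 45333216, minus strand), a fatty acid hydroxylase, stood at 8.78, 23.3 and 36.6 CPM in injured and at 5.36, 7.22 and 8.01 CPM in contralateral kidneys, without overlap (log2 difference 1.30, SE 0.10, edgeR adjusted p = 2.74e-10). Such a separation is common here, since 11.2% of all genes tested lay above without overlap. Cyp1b1 (chromosome 17, 79701537 to 79715061, minus strand), which oxidises oestradiol and polycyclic hydrocarbons and is a known target of the aryl hydrocarbon receptor, stood at 45.9, 175 and 327 CPM against 26.2, 58.4 and 68.3 CPM. Of the 12 injured libraries 10 lay above every contralateral one (log2 difference 1.12, SE 0.20, edgeR adjusted p = 1.96e-05).

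Cyp4f18 (chromosome 8, 71988482 to 72009626, minus strand), which inactivates a leukotriene in myeloid cells, stood at 0.848, 5.06 and 14.9 CPM in injured and at 0.289, 0.779 and 1.57 CPM in contralateral kidneys (log2 difference 2.20, SE 0.30, with no test, since its choice rests on injured kidneys). Cyp4f16 (chromosome 17, 32536558 to 32551798, plus strand) stood at 6.78, 18.6 and 28.0 CPM against 6.06, 7.22 and 9.09 CPM (log2 difference 0.85, SE 0.13, edgeR adjusted p = 3.84e-06). For each of them 10 of 12 injured libraries lay above every contralateral one, and the injured libraries inside the contralateral range came from the labelled Ihh-deleted arm. Cyp2s1 (chromosome 7, 25802475 to 25816913, minus strand), an epithelial enzyme that the aryl hydrocarbon receptor can induce, stood at 15.5, 20.8 and 37.5 CPM against 9.92, 12.5 and 17.7 CPM (log2 difference 0.50, SE 0.10, edgeR adjusted p = 5.18e-05).

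Neighbouring genes mostly shared a direction but not always. In the Cyp2j run all 6 genes fell, and in the run of Cyp4x1, Cyp4a and Cyp4b1 genes 6 of 7 fell, with Cyp4x1 not called (log2 difference 0.02, edgeR adjusted p = 0.907). In the Cyp4f run of chromosome 17, 4 genes fell and Cyp4f16 rose. On chromosome 7, Cyp2a4 and Cyp2a5 fell and Cyp2s1 rose. Cyp2f2 (log2 difference 0.04, edgeR adjusted p = 0.905) and the vitamin D hydroxylase Cyp2r1 (log2 difference -0.05, edgeR adjusted p = 0.731) were not called.

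Markers of other cells moved with the genes that rose. Summed CPM of 7 fibroblast and mural markers was 1125 to 4183 in injured kidneys of the intact arms, 325 to 906 in those labelled Ihh-deleted and 219 to 406 in contralateral kidneys, and 7 of 7 rose. For 6 macrophage markers these ranges were 332 to 997, 136 to 429 and 83.7 to 175 CPM, and 6 of 6 rose. For 6 dendritic cell markers they were 30 to 169, 11 to 65.7 and 5.21 to 12.7 CPM, and 6 of 6 rose. Their part in the rise of Cyp1b1, Cyp4f16, Cyp4f18 and Cyp4v3 was not tested in the bulk libraries.

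The arms differed in how many genes passed the test. In the wild-type tamoxifen arm 24 genes fell and 5 rose (60.7% of all genes were called by edgeR, 28.7% lower and 32% higher). In the floxed vehicle arm 22 fell and 6 rose (63.7% called, 31% lower and 32.6% higher). In the labelled Ihh-deleted arm 7 fell and 3 rose (33.8% called, 14.6% lower and 19.3% higher). The count of 10 in that arm was 5 without injured library 1, 5 without injured library 2, 3 without injured library 4, 5 without contralateral library 1 and 6 without contralateral library 4. Here and below, counts without a library lack the share of all genes called in the same fit. They do not tell a change in the P450 genes from a change over all genes. Median log2 differences in that arm were -0.53 for the P450 genes and -0.88 for the 22 proximal tubule genes, of which 11 fell.

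Both intact arms shared 21 falls and 4 rises (Cyp1b1, Cyp4f16, Cyp4f18 and Cyp4v3), where 24.7% of all genes tested fell and 25.8% rose in both. All 3 arms shared 6 falls (Cyp2d9, Cyp2d12, Cyp4b1, Cyp4f13, Cyp4f14 and Cyp4f17) and 2 rises (Cyp4f18 and Cyp4v3), where 11% of all genes fell and 14.4% rose in all 3. These counts hold genes whose direction the choice fixed, Cyp2c69 and Cyp4f14 among the falls and Cyp4f18 among the rises. Cyp4b1 fell by 2.35, 2.32 and 1.31 on the log2 scale in the wild-type tamoxifen, floxed vehicle and labelled Ihh-deleted arms (edgeR adjusted p = 0.0259 in the last). Cyp2a4 fell by 2.29 and by 2.46 in the intact arms, and its log2 difference in the labelled Ihh-deleted arm was -0.52 (edgeR adjusted p = 0.25). Cyp1b1 rose by 1.69 and 1.53 in the intact arms, and its log2 difference in the labelled Ihh-deleted arm was 0.14 (edgeR adjusted p = 0.779).

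**Figure D3:**
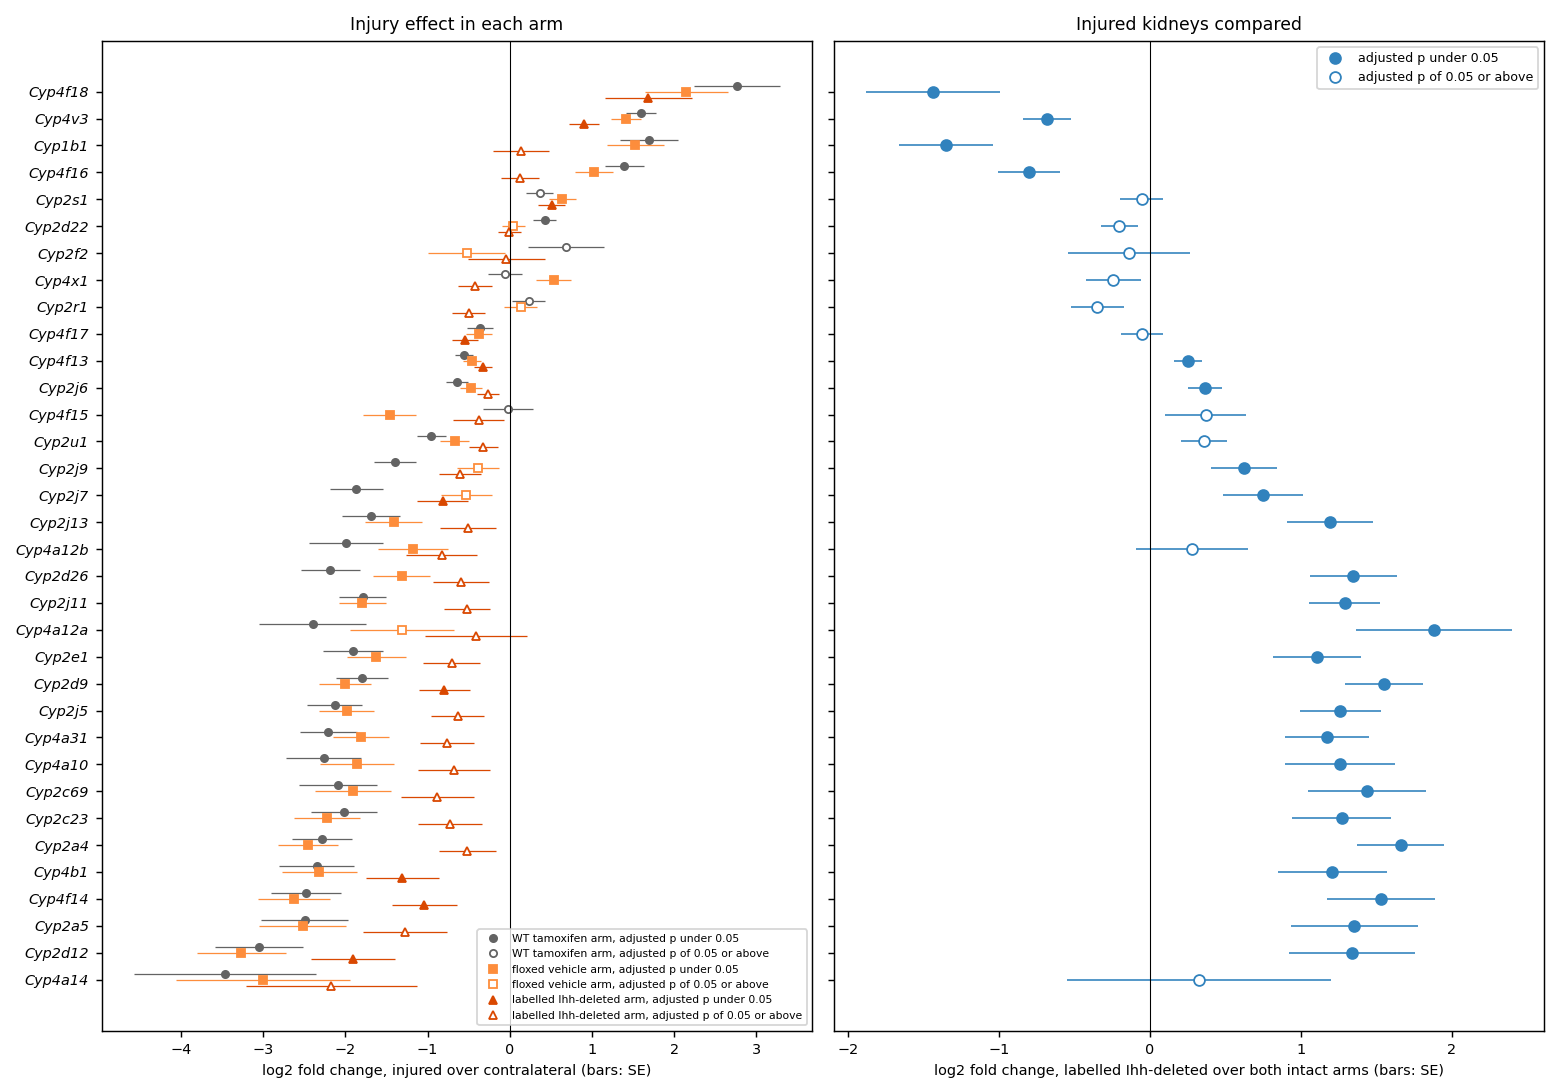
Log2 difference with its standard error (horizontal axes) for each of the 34 P450 genes (rows): injured against contralateral kidneys in each of 3 arms on the left, injured kidneys labelled Ihh-deleted against the intact arms on the right, with open symbols for an adjusted p of 0.05 or above. In the labelled Ihh-deleted arm 10 genes have filled symbols, against 29 in the wild-type tamoxifen and 28 in the floxed vehicle arm, and the injured kidneys labelled Ihh-deleted enter both panels.

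Among injured kidneys, most P450 genes were higher in the labelled Ihh-deleted arm. Against the intact arms together 20 of 34 genes were higher and 4 lower (37.2% of all genes were called by edgeR, 20.5% higher and 16.7% lower), with a median log2 difference of 0.69. All 22 proximal tubule genes were also higher (median 1.17). The higher genes were 14 of family 2, including all 6 Cyp2j and 3 Cyp2d genes, and 6 of family 4, including 3 Cyp4a genes. The lower genes were Cyp1b1, Cyp4f16, Cyp4f18 and Cyp4v3, all of which rise with injury, and the same injured libraries of this arm and of the intact arms enter that comparison too. The choice of Cyp4f18 rests on these injured kidneys, so its place among the 4 supports nothing. Without injured library 3 of the labelled Ihh-deleted arm the count of 24 was 12, again without the share of all genes called in that fit.

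Against wild-type tamoxifen alone 21 were higher and 5 lower (38.6% called, 20.6% higher and 18.1% lower, edgeR), and the count of 26 was 16 without injured library 3 of the labelled Ihh-deleted arm. Against floxed vehicle alone 8 were higher and 3 lower (16.4% called, 9.07% higher and 7.31% lower, edgeR). That count of 11 moved with single libraries: without libraries 2, 3 and 4 of the labelled Ihh-deleted arm in turn it was 5, 3 and 20, and without libraries 2, 3 and 4 of the floxed vehicle arm it was 6, 19 and 2. These comparisons share the labelled Ihh-deleted libraries, and any call of Cyp4f18 in them supports nothing. The shares of all genes called in the fits without a library are not given here either. The intact arms differed from each other in 2 genes (2.23% called, 1.69% higher and 0.54% lower in floxed vehicle, edgeR), Cyp4a12b being higher and Cyp4f15 lower in floxed vehicle. Cyp4f15 is near the minimum of the choice, and was singled out after its values were seen. It stood at 2.51, 1.70, 1.54 and 1.44 CPM in injured wild-type tamoxifen and at 0.768, 0.266, 0.606 and 0.441 CPM in injured floxed vehicle kidneys. The count of 2 was 1 without injured library 1, 2 or 4 of the wild-type tamoxifen arm or library 2 or 3 of the floxed vehicle arm, and 1 with no low-count filter.

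Of the higher genes, 3 showed no overlap with the 8 intact libraries, where 2.16% of all genes tested lay above without overlap and 8.44% lay below. Cyp2a4 stood at 612, 457, 565 and 339 CPM in injured kidneys labelled Ihh-deleted and at 72.4, 186 and 295 CPM (lowest, median, highest) in the intact arms (log2 difference 1.66, SE 0.29, edgeR adjusted p = 0.000374). Cyp2d9 stood at 175, 130.1, 162 and 107 CPM against 27.7, 59.8 and 94.8 CPM (log2 difference 1.55, SE 0.26, edgeR adjusted p = 0.000279). Cyp2j11 stood at 199.8, 201, 207 and 139.8 CPM against 46.1 to 133 CPM (log2 difference 1.29, SE 0.23, edgeR adjusted p = 0.000491). Library 4 was the lowest of the labelled Ihh-deleted arm for each of the 3 genes.

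Cyp4a12a stood at 214, 370.2, 509 and 84.0 CPM against 23.1, 86.1 and 276 CPM (log2 difference 1.89, SE 0.52, edgeR adjusted p = 0.00693). Only 2 of the 4 labelled Ihh-deleted libraries lay above every intact one, and without injured library 3 the adjusted p was 0.0671. Cyp2j5 stood at 930.3, 1066, 1332 and 716 CPM against 234, 540.3 and 719.8 CPM (log2 difference 1.26, SE 0.27, edgeR adjusted p = 0.00144), with 3 of 4 above every intact library. Cyp4a31 likewise had 3 of 4 above, at 208, 198, 196 and 116 CPM against 38.2, 107 and 184 CPM (log2 difference 1.17, SE 0.28, edgeR adjusted p = 0.00272).

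Cyp4b1 stood at 1058, 1549.8, 2690.4 and 1039 CPM against 261, 729 and 1409 CPM (log2 difference 1.21, SE 0.36, edgeR adjusted p = 0.0123). Cyp2e1 stood at 588, 929, 1217 and 413 CPM against 200.1, 462 and 675 CPM (log2 difference 1.11, SE 0.29, edgeR adjusted p = 0.00569). In each of these genes 2 of 4 labelled Ihh-deleted libraries lay above every intact one. Without injured library 3, which was the highest for both, the edgeR adjusted p was 0.149 for Cyp4b1 and 0.0762 for Cyp2e1.

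Cyp2d12 stood at 48.8, 75.9, 122 and 34.3 CPM against 14.2, 29 and 75.6 CPM (log2 difference 1.34, SE 0.42, edgeR adjusted p = 0.0148). Cyp2a5 stood at 97.5, 48.0, 127 and 37.4 CPM against 15.2, 28.7 and 68.1 CPM (log2 difference 1.36, SE 0.42, edgeR adjusted p = 0.0148). Each had 2 of 4 libraries above every intact one, and without injured library 3 the adjusted p was 0.157 and 0.134. Cyp4a10 stood at 252, 257, 193 and 107 CPM against 29.4, 94.9 and 271 CPM, with 0 of 4 above every intact library (log2 difference 1.26, SE 0.37, edgeR adjusted p = 0.00996). Cyp4f14 stood at 0.907, 0.985, 1.23 and 0.711 CPM against 0.0551, 0.402 and 0.719 CPM (log2 difference 1.53, SE 0.36, edgeR adjusted p = 0.00255), with 3 of 4 above.

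Cyp4a14, the gene with the largest fall, was not called between these kidneys. It stood at 20.6, 25.7, 9.88 and 3.37 CPM in the labelled Ihh-deleted arm and at 1.09, 10.1 and 58.2 CPM in the intact arms (log2 difference 0.32, SE 0.88, edgeR adjusted p = 0.8). Its copy-rich neighbour Cyp4a12b was not called either (log2 difference 0.28, edgeR adjusted p = 0.585). Cyp2s1, which rose with injury, had a log2 difference of -0.05 (edgeR adjusted p = 0.794).

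Of the 34 genes, 2 lay below the intact libraries without overlap, Cyp4f16 and Cyp4x1, and for Cyp4x1, singled out after its values were seen, the test did not pass (20.8, 16.6, 16.3 and 21 CPM against 21.9 to 31.8 CPM, log2 difference -0.24, edgeR adjusted p = 0.308). Cyp4f16 stood at 12, 8.87, 6.78 and 15.3 CPM in the labelled Ihh-deleted arm and at 15.4, 20.7 and 28.0 CPM in the intact arms (log2 difference -0.80, SE 0.20, edgeR adjusted p = 0.00429). Cyp1b1 stood at 57.7, 74.1, 45.9 and 113 CPM against 79.4, 206 and 327 CPM (log2 difference -1.35, SE 0.31, edgeR adjusted p = 0.00235). Cyp4v3 stood at 16.2, 12.7, 8.78 and 22.1 CPM against 19.7, 25.2 and 36.6 CPM (log2 difference -0.68, SE 0.16, edgeR adjusted p = 0.00228). For both, 3 of 4 libraries lay below every intact one.

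Cyp4f18 stood at 1.77, 1.39, 0.848 and 5.80 CPM against 3.29, 7.92 and 14.9 CPM (log2 difference -1.44, SE 0.44), with 3 of 4 below. No test is given for it, since its choice rests on injured kidneys, where the intact arms were the higher. It is counted among the 4 lower genes, but lost that call without injured library 2 or 3 of the labelled Ihh-deleted arm. The marker sums moved in the same direction: 6 of 6 macrophage, 7 of 7 fibroblast and mural and 4 of 6 dendritic cell markers were lower in the labelled Ihh-deleted arm, as were 0 of 4 B cell markers, and 9 of 9 markers of the S3 segment, the last stretch of the proximal tubule, were higher. Their part in these differences was not tested.

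The difference between arms was itself tested, as the injury effect in the labelled Ihh-deleted arm minus that in the intact arms. Of the 34 genes 9 passed, 7 higher and 2 lower (16.1% of all genes were called by edgeR, 10.4% higher and 5.74% lower). The 7 were Cyp2a4 (1.86, SE 0.43, adjusted p = 0.0102), Cyp4f14 (1.51), Cyp2j5 (1.42), Cyp2c23 (1.396), Cyp2j11 (1.27), Cyp4a31 (1.25) and Cyp2d9 (1.11), on the log2 scale. The choice of Cyp4f14 rests on kidneys without ischaemia, and contralateral kidneys enter this difference, so its place among the 9 supports nothing. The 2 were Cyp1b1 (-1.48, SE 0.42, adjusted p = 0.0232) and Cyp4f16 (-1.08, SE 0.28, adjusted p = 0.0161).

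That count moved with the method and with single libraries. The shares of all genes called in these other fits are not printed here. A change in the P450 genes can thus not be told from a change over all genes. By DESeq2 it was 14. Without single injured libraries of the labelled Ihh-deleted arm it was 5 (library 1), 5 (library 2), 1 (library 3) and 16 (library 4). It was 5 without injured library 1 or 2 of wild-type tamoxifen, 14 without injured library 3 of floxed vehicle, 5, 5 and 4 without contralateral libraries 2, 3 and 4 of the labelled Ihh-deleted arm, and 5 without contralateral library 3 of wild-type tamoxifen. Cyp2a4 kept its call in all 24 fits that left out 1 library. Cyp4f16, Cyp2j5 and Cyp2j11 lost it in 1 fit each, without injured library 3 of the labelled Ihh-deleted arm, and Cyp1b1 in 2, that one and without contralateral library 4. Cyp2c23, Cyp2d9, Cyp4f14 and Cyp4a31 lost it in 16, 15, 14 and 12 fits.

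In kidneys without ischaemia no P450 gene was called. In contralateral kidneys, labelled Ihh-deleted against intact arms, 0 of 34 passed (0.00568% of all genes by edgeR, 1 P450 gene at an unadjusted p under 0.05, 0 by DESeq2). Floxed vehicle against wild-type tamoxifen gave 0 (0% of all genes by edgeR, 1 unadjusted, 0 by DESeq2). Nephrectomy against contralateral kidneys gave 0 (5.63% of all genes by edgeR, 3.38% higher and 2.25% lower, 5 unadjusted, 1 by DESeq2), and 1 was called without nephrectomy library 1 (the library with 0.139% heart counts), contralateral library 4 of wild-type tamoxifen, or contralateral library 2 or 3 of floxed vehicle.

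Nephrectomy against uninjured kidneys gave 0 (0.176% of all genes by edgeR, 0.131% higher and 0.0455% lower, 0 unadjusted, 0 by DESeq2). Contralateral against uninjured kidneys gave 0 (0.455% by edgeR, 0.239% higher and 0.216% lower, 0 unadjusted, 0 by DESeq2). The uninjured group holds 2 libraries, 1 of them with 592091 counts. Cyp4a14, at 125, 324 and 383 CPM after nephrectomy, had a log2 difference of 1.83 from contralateral kidneys (edgeR adjusted p = 0.2), and of -1.46 for contralateral against uninjured kidneys (edgeR adjusted p = 0.64). The contralateral libraries alone spanned 8.13 to 308 CPM for that gene.

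Genes that serve the P450 enzymes mostly moved with them. Of 10 partner genes 9 fell with injury and 1 rose. Por, the reductase that passes electrons to every microsomal P450, fell by 1.17 (edgeR adjusted p = 8.09e-09), and Cyb5a, a cytochrome that can also pass on an electron, fell by 1.53 on the log2 scale. Fech, which completes haem synthesis, fell by 1.14, and Ephx2, the soluble hydrolase of arachidonic epoxides, fell by 1.33. Ephx1, the microsomal epoxide hydrolase, rose by 0.45. Among injured kidneys 8 of 10 were higher in the labelled Ihh-deleted arm, Por by 1.03 (edgeR adjusted p = 0.00026) and Cyb5a by 1.19.

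Of 19 genes for regulators of P450 genes, 13 fell and 4 rose with injury. Hnf4a, a transcription factor of the proximal tubule and liver, fell by 1.43. Ppara, the fatty acid receptor, fell by 1.34, and the xenobiotic receptors Nr1i2 and Nr1i3 fell by 1.13 and by 1.14. Ahr, the aryl hydrocarbon receptor, rose by 0.93 and its repressor Ahrr by 1.12. The other rises were Cebpb (1.08) and Arnt (0.12), the partner of Ahr. Among injured kidneys 12 of the 19 were higher in the labelled Ihh-deleted arm and 1, Ahr, was lower (-0.59); Ppara was higher by 1.36, Hnf4a by 1.21, Ghr by 1.45 and Prlr by 1.84, while Nr1i2 (-0.44) and Nr1i3 (0.23) did not pass.

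Of 15 PPARA target genes tested, 13 fell with injury (median -1.13), and Angptl4 and Pdk4 did not pass. Among injured kidneys 9 were higher in the labelled Ihh-deleted arm. P450 genes of family 5 and above, which make steroids, bile acids and vitamin D products, gave 3 rises and 3 falls among 12 tested, and 2 higher and 1 lower in the labelled Ihh-deleted arm. Hepatocyte genes held at most 0.0185% of counts in any of the 29 libraries, with 4 of 5 tested lower after injury. Adrenal cortex genes held at most 0.00159%. Heart genes held at most 0.0225% in 28 of the 29 libraries and 0.139% in nephrectomy library 1, and gave 5 rises and 1 fall of 8 tested. All 29 libraries carried Y-linked transcripts, with 1 of 4 sex-linked genes tested called for injury (Ddx3y, 0.16) and 2 in the labelled Ihh-deleted arm (Ddx3y, 0.33; Uty, 0.29).

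The single-cell tables held 3063 cells from the injured and 1313 from the uninjured kidney, with median UMI counts of 2014 and 2391, and 8 barcodes occurred in both. Of the 34 genes 29 were listed for the injured and 28 for the uninjured library. The tables hold cells with up to 50% mitochondrial UMIs, and 683 of the injured and 765 of the uninjured cells had over 20%. Each library is 1 sample, so there is no test, and intervals are exact 95% Poisson intervals for counting error only. Proximal-tubule-like cells were 29.4% of injured and 79.7% of uninjured cells, and immune-like cells were common in the injured library, with 339 macrophage-like, 223 dendritic-like, 334 T- or NK-like and 317 B-like cells.

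In S3-like cells the P450 genes together held 5247 CPM (interval 5126 to 5370) in 492 injured and 6762 CPM (6644 to 6883) in 551 uninjured cells. In S3-like cells with at most 20% mitochondrial UMIs these sums were 5430.8 and 7113.4 CPM, and the part of such UMIs in the values of single genes was not tested. In S1/S2-like cells, the upstream part of the proximal tubule, they held 2209 CPM (2116 to 2305) in 407 and 2717 CPM (2634 to 2801) in 496 cells. Over all cells the sum was 1422 CPM in the injured and 4120 CPM in the uninjured library, so the sums over all cells differ more than those within either class. Within the S3-like class most injured cells came from clusters 12 (190), 13 (136), 18 (89) and 17 (77), and most uninjured cells from 12 (201), 17 (179), 13 (100) and 18 (71). A class named injured tubule held 48 injured cells and 1 uninjured cell, and met 3 of 6 injured tubule and 3 of 9 S3 markers. It is in neither proximal class, so comparisons within those classes do not cover its cells.

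Of 17 P450 genes with at least 20 UMIs in S3-like cells of each library, 9 were lower and 8 higher in the injured one, with a median ratio of 0.940. Cyp4b1 stood at 2320 against 3541 CPM, Cyp2d12 at 128 against 235 CPM and Cyp4a12a at 95.3 against 208 CPM. Cyp2j5 stood at 791 against 845 CPM and Cyp2e1 at 904 against 962 CPM. Ratios of these 5 genes ran from 0.459 for Cyp4a12a to 0.940 for Cyp2e1. Cyp4a10 was higher in injured S3-like cells, at 200.2 CPM (interval 177 to 225) against 97 CPM (83.2 to 112), and so was Cyp4a14, at 50.6 CPM (39.4 to 64) against 17 CPM (11.5 to 24.1). Cyp4a31 stood at 123 against 91.5 CPM. In bulk RNA these 3 Cyp4a genes fell, and the libraries differ in animal, preparation and depth as well as in injury.

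In S1/S2-like cells 5 of 9 such genes were lower and 4 higher, with a median ratio of 0.949. Cyp2d12 (312 CPM injured, 470 CPM uninjured) and Cyp2d26 (256 and 224 CPM) had more CPM there than in S3-like cells, where Cyp2d26 stood at 32.3 and 26.3 CPM, and Cyp2d22 did so at a low level (12.5 and 11.3 CPM against 3.67 and 4.93 CPM). Cyp2a4 and Cyp2d9 were the reverse, at 2.07 and 9.34 CPM in S1/S2-like and 142 and 140.1 CPM in S3-like injured cells. Cyp4a10 and Cyp4a14 had 273 and 69 UMIs in injured S3-like cells and 23 and 1 in S1/S2-like cells.

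**Figure D4:**
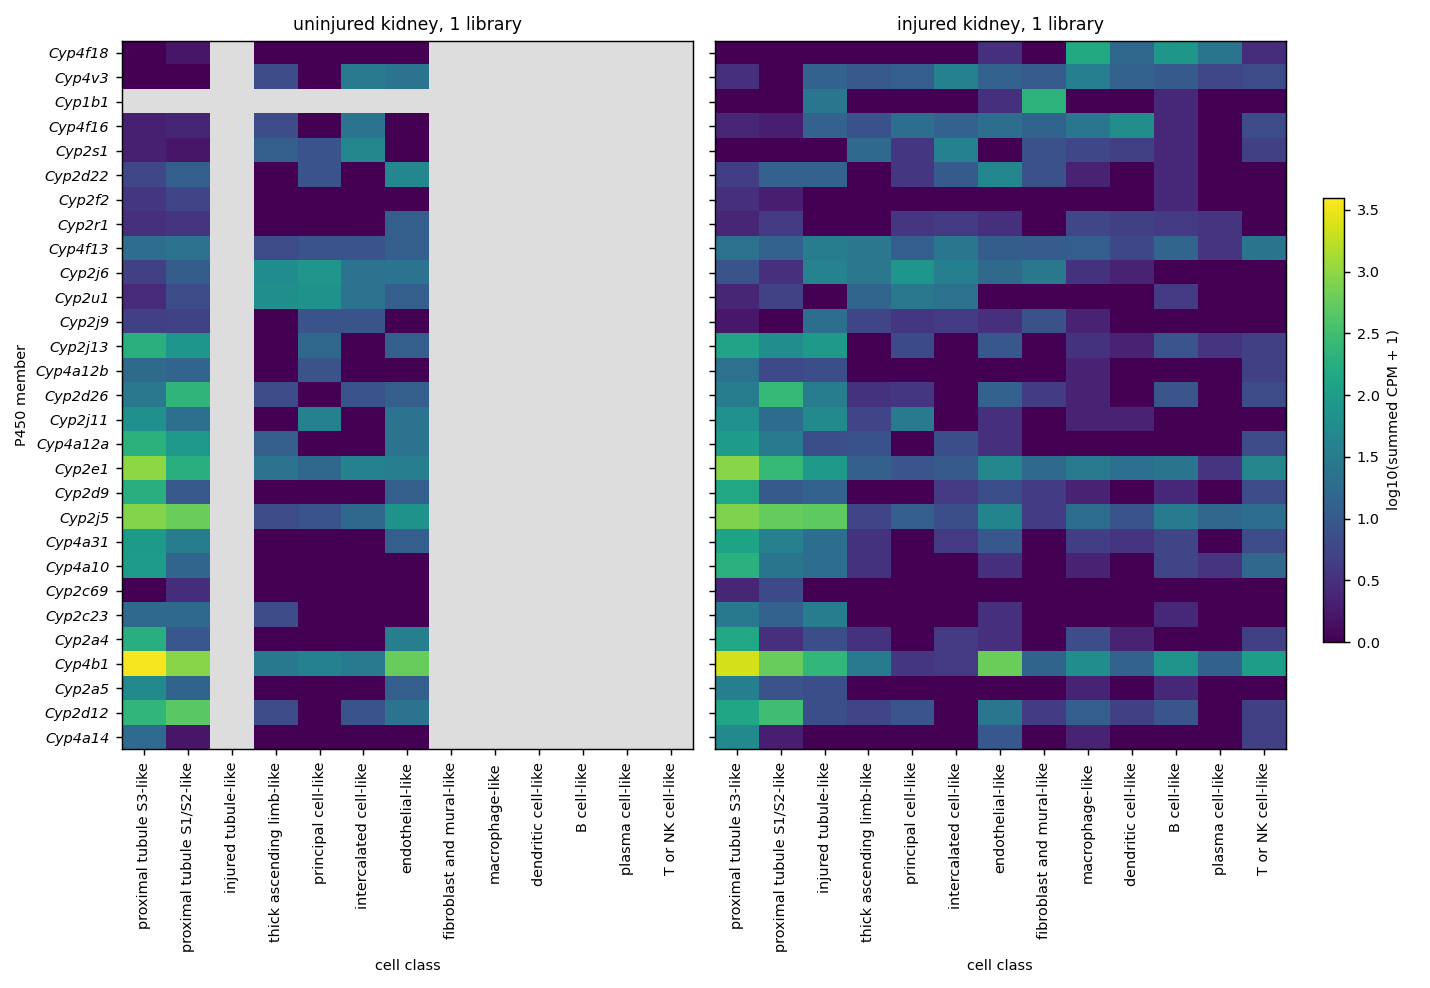
CPM of the P450 genes (rows) by cell class (columns) in the injured and uninjured single-cell libraries, as log10(CPM + 1) in colour, with grey for a gene not listed or a class of under 20 cells. Cyp4b1 and Cyp2e1 are highest in S3-like cells, Cyp1b1 in fibroblast- and mural-like cells (211 CPM) and Cyp4f18 in macrophage-like cells (153 CPM).

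The genes that rose in bulk RNA were counted mostly outside the proximal tubule. Of 69 Cyp1b1 UMIs in the injured library, 63 were in fibroblast- and mural-like cells (211 CPM, interval 162 to 270). Another 4 were in cells of the class named injured tubule (25.3 CPM), and none in proximal-tubule-like cells. The name of the fibroblast- and mural-like class depends on the clustering. At doubled resolution 52 injured cells, with leading genes of part of this class (Map1b, Tagln, Igfbp2 and Ankrd1), met only 3 of 7 fibroblast and mural markers and stayed unnamed. The place of Cyp1b1 in that clustering was not tested. Of 202 Cyp4f18 UMIs, 127 were in macrophage-like cells (153 CPM, 127 to 181) and 50 in B-like cells, and none in proximal-tubule-like cells. Of 106 Cyp4f16 UMIs, 48 were in dendritic-like cells (59.9 CPM, 44.1 to 79.4) and 21 in macrophage-like cells.

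Cyp4v3 had 29 of 86 UMIs in macrophage-like cells (34.8 CPM) and 12 in intercalated-like cells of the collecting duct (37.6 CPM). Cyp2s1 had 12 of 33 UMIs in intercalated-like cells and 7 in thick-ascending-limb-like cells, with 0 in proximal-tubule-like cells. The uninjured library held 17 macrophage-like and 7 fibroblast- and mural-like cells, too few for a comparison within those classes. Proximal-tubule-like cells held 2.83% of Cyp4f16 and 3.49% of Cyp4v3 UMIs of the injured library, against 87.8% for Cyp4b1, 91.8% for Cyp2e1, 94.0% for Cyp4a10 and 94.2% for Cyp2a4.

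Some P450 genes were also counted in other cells. Cyp4b1 stood at 614 CPM (interval 546 to 688) in injured and 580.3 CPM (432 to 763) in uninjured endothelial-like cells, close to its 580.1 CPM in injured S1/S2-like cells. T- or NK-like and B-like cells of the injured library, which are not known to make it, held 104 and 72.2 CPM, with median UMI counts of 1304 and 1601 against 1363 in endothelial-like cells. In the uninjured library 17 macrophage-like cells held 378 CPM (189 to 676), so the value of uninjured endothelial-like cells is not clear of the level in other classes. Cyp2d22 was highest in endothelial-like cells of each library (43.8 and 45.5 CPM, from 21 and 4 UMIs). Cyp2j6 was highest in principal-like cells, at 77.7 and 73.8 CPM (29 and 10 UMIs), and Cyp2u1, a fatty acid hydroxylase, was also highest there, at 26.8 and 66.5 CPM (10 and 9 UMIs). Principal cells take up water and sodium in the collecting duct. The cluster so named met 6 of 6 principal cell markers and also 3 of 5 markers of the distal convoluted tubule. No separate class of that tubule was named, so the class may mix both cell types.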

How the data were processed

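Bulk RNA and 2 single-cell libraries of mouse kidney were used. The authors deposited estimated counts per transcript for the bulk libraries, made with Salmon 1.4 on GRCm38 or mm10 per the submitters' processing notes, and UMI counts per gene and cell for the single-cell libraries, made with Cell Ranger and STAR per the same notes. The sources used here do not give the transcript set or the options. Of 105833 transcripts 105203 matched GENCODE M21, and the 630 others held 0.213% of counts. Transcripts were summed to 33644 genes and rounded, and no per-sample column was left unused (0). Each bulk group has 4 numbered columns, taken as 4 libraries.

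Tests used edgeR 4.0.16 in R 4.3.3 with TMM factors, filterByExpr, 1 coefficient per group over 29 libraries, glmQLFit and glmQLFTest, p-values adjusted by Benjamini and Hochberg's method over the 17591 genes tested, and a threshold of 0.05. CPM use library totals without TMM factors, and log2 differences are fitted with their standard errors. The fits were tested on simulated counts. Alternatives were RLE factors, no filter, DESeq2 1.42.0, all 32 libraries, each library left out, and a block by column number.

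Library values are printed for the 6 genes with the highest level per kilobase, the 5 per direction with the largest injury differences, the 4 per direction with the largest differences between labelled Ihh-deleted and intact injured kidneys, and family 1. Other genes are given by fold and count, and Cyp2j11, Cyp4f13 and Cyp4f15 were given library values after theirs were seen. Gene lists (P450 partners, P450 regulators, PPARA targets, proximal tubule, other P450 families, hepatocyte, adrenal cortex, heart, sex-linked and cell markers) and the members were chosen with earlier results of these data known.

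Cells were clustered with scanpy 1.11.5 in Python 3.11.15 on both tables together, without the P450 genes, and named from marker lists by a rule chosen after the clusters were seen. No doublet caller was run. Column numbers were checked as pairs of injured and contralateral kidneys: correlations of same-numbered libraries ran from -0.207 to 0.183, with the own number best in 5 of 12, so the numbers were not treated as pairs.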

Additional observations from a re-analysis of the deposited data

Results flagged for a closer look

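In groups of 4 libraries, the gap of the highest or lowest library to its neighbour, divided by the range of the group, was compared with Dixon's 95% value of 0.829. Of 102 gene and group combinations 7 exceeded it, and chance gives about 1 in 20. Among contralateral kidneys labelled Ihh-deleted, Cyp2a5 in library 1 was high (293 CPM, ratio 0.994), Cyp2j5 in library 2 was high (1454 CPM, ratio 0.955), Cyp2s1 in library 4 was low (10.8 CPM, ratio 0.875) and Cyp4b1 in library 3 was low (3229 CPM, ratio 0.840). Among injured wild-type tamoxifen kidneys, library 3 was high for Cyp2d12 (75.6 CPM, ratio 0.913) and Cyp4a14 (25 CPM, ratio 0.894). Among injured kidneys labelled Ihh-deleted, library 4 was low for Cyp4a31 (116 CPM, ratio 0.870).

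The injury effect differed between the labelled Ihh-deleted and the intact arms in 9 genes, by edgeR's quasi-likelihood test of the difference itself (log2 difference, adjusted p over all genes). It was less negative for Cyp2a4 (1.86, 0.0102), Cyp2j11 (1.27, 0.019), Cyp2j5 (1.42, 0.0221), Cyp4a31 (1.25, 0.0395), Cyp2c23 (1.396, 0.0467), Cyp2d9 (1.11, 0.0476) and Cyp4f14 (1.51). For Cyp4f14 no p-value is given and the flag supports nothing, since its choice rests on kidneys without ischaemia. It was less positive for Cyp4f16 (-1.08, 0.0161) and Cyp1b1 (-1.48, 0.0232).

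The 3 heart-profile libraries, which enter no comparison, held more of 2 P450 genes than any used kidney library without ischaemia. The lowest of them held 43.3 CPM of Cyp2u1 against at most 32.9 CPM in kidney, and 21.5 CPM of Cyp2d22 against at most 20.1 CPM.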

How the results depend on the processing

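Counts of called P450 genes in the alternative fits are given here and above without the share of all genes called in the same fit. They do not tell a change in the P450 genes from a change over all genes. Under RLE factors the counts held within 1.5 times in all 14 comparisons. Without a low-count filter floxed vehicle against wild-type tamoxifen gave 1. DESeq2 gave 14 for the difference of injury effects and 1 for nephrectomy against contralateral kidneys. With all 32 libraries, which puts the 3 heart-profile libraries back in their groups, the counts were 19 for injury over 3 arms, 8, 7 and 2 in the wild-type tamoxifen, floxed vehicle and labelled Ihh-deleted arms, 3, 4 and 0 for labelled Ihh-deleted injured kidneys against the intact arms, wild-type tamoxifen and floxed vehicle, 0 for floxed vehicle against wild-type tamoxifen, 0 for the difference of injury effects and 10 for contralateral against uninjured kidneys. With each library left out in turn, counts ran from 30 to 31 for injury over 3 arms, 27 to 29, 24 to 28 and 3 to 15 in the 3 arms in that order, 12 to 26, 16 to 28 and 2 to 20 for the 3 comparisons of labelled Ihh-deleted injured kidneys in that order, 1 to 2 between the intact injured arms, 1 to 16 for the difference of injury effects and 0 to 1 for nephrectomy against contralateral kidneys.

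A replicate block by column number, which the data do not bear out as a pairing, gave 5 for the difference of injury effects and moved none of the other 4 counts by over 1.5 times. Among the 17 genes with library values, all 408 fits with a library left out kept direction and side for injury. Directions turned only in results that were not called. For the difference of injury effects, Cyp2s1 (0.01) gave -0.0585 with RLE factors, -0.0583 with DESeq2, -0.0039 with all 32 libraries and -0.0929 to 0.0717 without a library, 9 of 24 such fits being negative. In labelled Ihh-deleted against intact injured kidneys it ranged from -0.1543 to 0.0103 without a library and Cyp4a14 from -0.1009 to 1.3054. The cause was not tested. Cells with at most 20% mitochondrial UMIs gave summed P450 levels of 5430.8 CPM in injured and 7113.4 CPM in uninjured S3-like cells and 3124.7 CPM in uninjured S1/S2-like cells. Genes near 1 CPM rest on few counts in the shallowest library.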
